A study of Mus musculus with 24 samples.

Results

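The response of mouse liver to diethylhexylphthalate (DEHP) at 2 h, the shortest of the labelled times, was examined by setting the 3 arrays of DEHP-dosed mice at 2 h against the 3 arrays of corn oil-dosed mice at 2 h. These 6 arrays belong to a series of 24, with 3 arrays for each compound at 2, 8, 24 and 72 h. All mice were males of the B6C3F1 hybrid strain, 7 to 10 weeks old on arrival and given at least 5 days to acclimatise. The DEHP mice received 1150 mg/kg/day by oral gavage in 10 ml/kg, and the controls received the same volume of the corn oil vehicle with no compound (0 mg/kg). Dosing was repeated every 24 h for up to 3 days in the study; the labels do not say from which dose the 2 h are counted. The study design gives 6 mice a group and the series 3 arrays, and the labels do not say which animals stand behind an array. The p-values thus measure only the spread between arrays of a group, pooled over all 24 arrays of the series. That spread may be technical.

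DEHP is a plasticiser whose monoester activates the nuclear receptor PPAR alpha. In rodent liver this receptor pairs with a retinoid X receptor and switches on genes that import, activate and oxidise fatty acids in peroxisomes, mitochondria and the endoplasmic reticulum. Sustained activation is known for enlarging the peroxisome compartment and the liver itself in rodents.

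Signals are RMA log2 values, so a difference of 1 is a doubling of signal. Every change below is DEHP minus corn oil at 2 h ± its standard error from limma, with 3 arrays a group (n = 3), and Benjamini-Hochberg adjustment covers all 18193 genes. A gene is called at an adjusted p under 0.05. RNA was taken from whole liver, where fewer cells of a type and less RNA per cell cannot be told apart. The 13 measured hepatocyte markers had a median signal of 13.71 to 13.80 on the DEHP arrays and 13.70 to 13.89 on the corn oil arrays, against array medians of 6.46 to 6.55 over the series. Actb probe sets at the 3' and 5' ends of the transcript, a check of RNA integrity, differed by 0.52 to 0.58 on all 6 arrays.

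The test called 151 of 18193 genes (0.83%), of which 112 were higher (0.616%) and 39 lower (0.214%) in DEHP livers. The shares of higher and lower genes are those to set beside the list counts below. The median called rise was 0.79 and the median called fall -0.70. Over all genes the median change was -0.02, and 43.2% of genes had a positive change. At least 2-fold changes were found for 31 of the higher and 6 of the lower genes. Of the called genes 84 had more than 1 probe set, and 10 had a probe set that changed in the other direction. The 3 DEHP arrays lay entirely above the 3 corn oil arrays for 110 of the 112 higher genes and entirely below them for 38 of the 39 lower genes, against 4.67% and 6.72% of all genes. Arhgef18, Dpp9 and Pnpla5 were the exceptions. The calls were made on these same arrays, so the separation largely follows from them and adds no support. Of the higher genes 46 were called in all 6 fits that left out 1 array, and of the lower genes 4 (Foxo3, Slc19a2, Zfp385b and Zfyve21). Without DEHP replicate 1, 57 of the 112 and 12 of the 39 remained called, and without DEHP replicate 3, 59 and 6. For corn oil replicate 1 the numbers were 58 and 15, for replicate 2 they were 74 and 23, and for replicate 3 they were 54 and 7. Without DEHP replicate 2, 98 and 33 remained, in a total that grew to 149 higher and 90 lower genes. Below, a call is said to hold or fail without an array by these 6 fits, and the range after it covers the changes in all 6.

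The leading rise was in Pdk4 (chromosome 6), the kinase that shuts off pyruvate dehydrogenase and so diverts carbon away from glucose oxidation. Its log2 signal was 12.15, 12.02 and 12 with DEHP, against 7.41, 7.13 and 6.75 with corn oil. The 3 DEHP arrays differed from each other by little beside the gap to corn oil, and no array overlapped the other group. Pdk4 rose by 4.96 ± 0.27 (31.1-fold, adjusted p = 1.46e-10). It was the 1 called of 12 measured genes of the pyruvate switch (8.33%); the list's median change was -0.17, and without DEHP replicate 2 the calls were 2 higher and 2 lower (Pdk4, Pdk1, Pdhb and Pdp2). Pdk1, a kinase of the same enzyme, read 8.79, 9.57 and 9.14 with DEHP, against 9.74, 9.87 and 9.84 with corn oil, without overlap but with DEHP replicate 2 close to corn oil, a change of -0.65 ± 0.20 (adjusted p = 0.192).

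Cyp4a14 (chromosome 4), a microsomal cytochrome P450 that hydroxylates fatty acids at the omega end, had the next largest called rise. It read 11.78, 11.78 and 12.07 with DEHP, against 7.68, 6.75 and 7.87 with corn oil. The lowest DEHP array stood well above the highest corn oil array. Cyp4a14 rose by 4.44 ± 0.40 (21.7-fold, adjusted p = 1.19e-06). Its neighbour in the same family, Cyp4a31, read 9.85, 9.52 and 9.92 with DEHP, against 8.31, 8.07 and 8.32 with corn oil, also without overlap. Cyp4a31 rose by 1.53 ± 0.19 (2.89-fold, adjusted p = 0.000102) on this probe set and by 2.74 on its other one. These 2 were the called genes among 9 measured omega-hydroxylases (22.2%, against 0.616% of all genes). The list's median change was -0.01, and Cyp4a12a, the male-biased member, had a change of -0.04. Members of the Cyp4a cluster are similar in sequence, so probes of one may take up signal from another.

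Of 13 measured acyl-CoA thioesterases, which split acyl-CoA into free fatty acid and coenzyme A, 4 were called higher (30.8%, against 0.616% of all genes), with a list median of 0.06; without each array in turn 1 or 2 were called. Acot1, the cytosolic member, read 11.06, 11.36 and 11.14 with DEHP, against 8.21, 7.85 and 7.75 with corn oil. The DEHP values were tight and far above every corn oil value. Acot1 rose by 3.25 ± 0.43 (9.51-fold, adjusted p = 0.000123). Acot2, the mitochondrial member, read 8.84, 9.01 and 8.90 with DEHP, against 7.81, 7.95 and 7.95 with corn oil, again without overlap. It rose by 1.01 ± 0.24 (2.02-fold, adjusted p = 0.0397), a call failing without any 1 of the 6 arrays (range 0.97 to 1.05). Acot3, a peroxisomal member, read 8.4, 8.69 and 9.05 with DEHP, against 7.17, 7.27 and 7.21 with corn oil. Its DEHP values spread over more than those of the other 3 but did not meet corn oil. It rose by 1.5 ± 0.35 (2.82-fold, adjusted p = 0.0394), a call failing without any 1 of the 6 arrays (range 1.33 to 1.65). Acot4, another peroxisomal member, read 7.91, 7.79 and 8.04 with DEHP, against 7.14, 6.86 and 6.97 with corn oil, and all its DEHP values exceeded the corn oil values. It rose by 0.92 ± 0.21 (1.89-fold, adjusted p = 0.0356), a call holding only without DEHP replicate 2 (range 0.86 to 1.00). All 4 genes lie on chromosome 12. Acot1 and Acot2 are near-identical copies, as are parts of Acot3 and its neighbours, so the share of each in these signals is uncertain.

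The receptor pair binds a direct repeat of AGGTCA-like half-sites 1 base apart, and the Acot4 promoter is shown because it held the only match to a relaxed form of that element (AGGNCA copies 1 base apart on either strand, with any base at the first place of the first copy) among the called genes. The 250 bases before its RefSeq start, chr12:84038129-84038378 of GRCm38.p6 on the plus strand, read as follows with the match, here on the opposite strand, in capitals directly before the start.
Acot4: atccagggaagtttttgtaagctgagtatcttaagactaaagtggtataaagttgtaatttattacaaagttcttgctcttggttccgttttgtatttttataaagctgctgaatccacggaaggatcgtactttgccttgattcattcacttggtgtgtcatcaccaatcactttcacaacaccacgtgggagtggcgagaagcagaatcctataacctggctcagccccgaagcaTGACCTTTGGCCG
Promoter windows, which here run 250 bases before to 50 after a start, were at hand for 88 of the 112 higher genes and 34 of the 39 lower genes. The relaxed repeat was found in 1 of the 88 (1.14%), against 0.967% of 14367 array genes with a window. The form with both AGGNCA copies complete was in 0 of 88, against 0.418%. A single AGGTCA, which overlaps these forms, was in 16 of 88 higher genes (18.2%) and 4 of 34 lower genes (11.8%), against 16.4%. CACGTG, the E-box, was in 13 of 88 (14.8%) and 6 of 34 (17.6%), against 10.3%. GTAAACA, a forkhead motif, was in 4 of 88 (4.55%) and 1 of 34 (2.94%), against 3.38%, and TGANTCA, the AP-1 motif, was in 9 of 88 (10.2%) and 2 of 34 (5.88%), against 7.5%. All motifs were searched on both strands.

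Among genes of peroxisomal oxidation, 8 of 34 measured members were called higher (23.5%, against 0.616% of all genes) and none lower, with a list median of 0.15. Acot3 and Acot4, given above among the thioesterases with calls that fail without most arrays, are among the 8. Ehhadh, the bifunctional enzyme of the middle steps of peroxisomal beta-oxidation, read 12.77, 13.08 and 12.85 with DEHP, against 10.73, 11.07 and 11.10 with corn oil. Every DEHP value was well above every corn oil value. Ehhadh rose by 1.93 ± 0.21 (3.81-fold, adjusted p = 1.46e-05). Pex11a, which promotes division of peroxisomes, read 11.32, 11.36 and 11.22 with DEHP, against 10.13, 10.42 and 10.47 with corn oil, without overlap. It rose by 0.96 ± 0.17 (1.94-fold, adjusted p = 0.00475). Pxmp4, a peroxisomal membrane protein, rose by 0.99 ± 0.15 (1.99-fold, adjusted p = 0.000649), and Crot, which turns shortened acyl-CoA into carnitine esters for export to mitochondria, by 0.81 ± 0.12 (1.76-fold, adjusted p = 0.000519). The other probe set of Crot stood at 0.09. Eci2, an enoyl-CoA isomerase, rose by 0.79 ± 0.15 (1.73-fold, adjusted p = 0.00655). Mlycd, which removes malonyl-CoA, rose by 0.39 ± 0.09 (1.31-fold, adjusted p = 0.0388), a call holding only without DEHP replicate 2 (range 0.30 to 0.50). Other genes of the list did not pass the test: Acaa1b, a thiolase, had a change of 0.47 ± 0.18 (adjusted p = 0.39), Hsd17b4, the other bifunctional enzyme, of 0.20 and Cat, which breaks down hydrogen peroxide, of -0.08. Without each of the 6 arrays in turn, 5 to 7 members of the list were called higher, and 1, Pecr, was called lower without DEHP replicate 2.

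Of 23 measured genes of mitochondrial oxidation 4 were called higher (17.4%, against 0.616% of all genes) and none lower, with a median change of 0.13. Slc22a5, the plasma membrane carnitine importer, read 10.87, 10.02 and 10.73 with DEHP, against 8.95, 9.07 and 8.60 with corn oil. DEHP replicate 2 was the lowest of the 3 DEHP values and still above all corn oil values. Slc22a5 rose by 1.66 ± 0.19 (3.17-fold, adjusted p = 2.89e-05), and by 1.71 on its other probe set. Cpt2, which reforms acyl-CoA inside the mitochondrion, rose by 0.59 ± 0.13 (1.51-fold, adjusted p = 0.0325), a call holding only without DEHP replicate 2 (range 0.52 to 0.64). Slc25a34, a mitochondrial carrier, rose by 0.38 ± 0.08 (1.3-fold, adjusted p = 0.0306), a call holding only without DEHP replicate 2 (range 0.33 to 0.41). Acot2 completed the 4. Slc25a42, the mitochondrial coenzyme A carrier and a member of another list, read 10.92, 10.45 and 11.13 with DEHP, against 9.87, 10.03 and 9.50 with corn oil. It rose by 1.04 ± 0.16 (2.05-fold, adjusted p = 0.000992) on this probe set but the other stood at 0.07. Cpt1a, the entry step, had a change of 0.31 ± 0.12 (adjusted p = 0.418), and Slc25a20, the carnitine-acylcarnitine carrier, of 0.48 ± 0.15 (adjusted p = 0.202). Without each array in turn, 1 to 3 of the list were called higher.

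Of 30 measured genes of lipid uptake and droplets 3 were called higher (10%, against 0.616% of all genes) and 0 lower, with a list median of 0.00. Without DEHP replicate 2, 4 were called higher (Plin2, Plin4, G0s2 and Hilpda) and 3 lower (Lpl, Pnpla3 and Abhd5). Without any other single array the calls were 3 higher and 0 lower. G0s2, an inhibitor of the lipase Pnpla2, read 12.79, 12.80 and 12.73 with DEHP, against 10.74, 10.47 and 9.94 with corn oil. Its 3 DEHP values were nearly equal, and every corn oil value was far below them. G0s2 rose by 2.39 ± 0.36 (5.24-fold, adjusted p = 0.000556). Plin2, the main droplet coat of hepatocytes, read 13.57, 13.53 and 13.63 with DEHP, against 12.72, 12.72 and 12.49 with corn oil, with both groups tight and separate. It rose by 0.93 ± 0.12 (1.91-fold, adjusted p = 0.000103). Hilpda, another inhibitor of Pnpla2, rose by 0.63 ± 0.11 (1.55-fold, adjusted p = 0.00279). Values below the threshold of the test were 0.76 ± 0.21 (adjusted p = 0.103) for Plin5, the coat of droplets in oxidative tissue, and 0.81 ± 0.26 (adjusted p = 0.228) for Angptl4, a secreted inhibitor of lipoprotein lipase. Gpat3, which starts glycerolipid synthesis, was outside the list; it read 8.86, 8.09 and 8.74 with DEHP, against 7.12, 7.13 and 7.18 with corn oil, and rose by 1.42 ± 0.18 (2.67-fold, adjusted p = 0.000102). Nceh1, a cholesteryl ester hydrolase, rose by 1.01 ± 0.15 (2.01-fold, adjusted p = 0.000538).

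The Plin2 promoter is shown as a called gene with a single AGGTCA half-site. The 250 bases before its RefSeq start, chr4:86670060-86670309 of GRCm38.p6 on the minus strand, read as follows with the match, here on the opposite strand, in capitals.
Plin2: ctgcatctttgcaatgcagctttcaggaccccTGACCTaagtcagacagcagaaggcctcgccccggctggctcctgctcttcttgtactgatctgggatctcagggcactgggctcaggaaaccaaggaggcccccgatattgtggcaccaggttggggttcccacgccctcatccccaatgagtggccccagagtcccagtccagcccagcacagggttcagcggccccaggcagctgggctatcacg
The match begins 218 bases before the start.

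Of the receptors themselves and their coregulators, 1 of 21 measured was called higher (4.76%); without DEHP replicate 2, Ppargc1a and Lpin1 were also called, both lower. Ppara read 11.06, 11.35 and 10.75 with DEHP, against 10.84, 10.82 and 11.55 with corn oil, and its groups overlapped, with a change of -0.02 ± 0.21 (adjusted p = 0.994). Rxra, a partner receptor, had a change of 0.19 ± 0.09 (adjusted p = 0.595). The called gene was Ppard, the delta isoform. It read 8.77, 8.06 and 8.21 with DEHP, against 7.44, 7.42 and 7.41 with corn oil, with the corn oil values nearly equal and replicate 1 the highest of the DEHP values. Ppard rose by 0.92 ± 0.22 (1.9-fold, adjusted p = 0.0397), a call holding only without DEHP replicate 2 (range 0.71 to 1.07); its other probe set stood at 0.17. The coactivator Ppargc1a read 6.09, 6.76 and 5.74 with DEHP, against 6.79, 7.94 and 8.52 with corn oil, where DEHP replicate 2 nearly met corn oil replicate 1, and had a change of -1.56 ± 0.41 (adjusted p = 0.0825).

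Of 5 measured genes of ketone bodies and their signalling, 2 were called higher (40%, against 0.616% of all genes), with a list median of 0.06. The enzymes Acat1 and Bdh1 were not called, with changes of 0.01 and 0.00. Without each array in turn, 0 to 2 of the list were called higher. Slc16a1, a carrier of ketone bodies and lactate, rose by 0.73 ± 0.13 (1.66-fold, adjusted p = 0.00619), a call failing without DEHP replicate 1 (range 0.62 to 0.83). Its other probe set stood at 0.09. Fgf21, which was also the 1 called of 20 secreted liver hormones (5%, list median -0.09), is made in fasting. It read 9.38, 8.38 and 8.66 with DEHP, against 7.95, 7.97 and 7.66 with corn oil. All DEHP values were higher, replicate 1 by the most. Fgf21 rose by 0.95 ± 0.21 (1.93-fold, adjusted p = 0.0323), a call holding only without DEHP replicate 2 (range 0.66 to 1.16). Creb3l3, a membrane-bound transcription factor of fasting that acts on Fgf21, rose by 0.53 ± 0.09 (1.44-fold, adjusted p = 0.00317). Among 15 measured genes of coenzyme A and pantetheine metabolism 2 were called higher (13.3%), Vnn1 and Slc25a42, and 1 lower (6.67%), Acss2. The list median was -0.03, and over all genes the shares were 0.616% higher and 0.214% lower. Vnn1, the pantetheinase that recycles the precursor of coenzyme A, read 10.44, 9.65 and 9.92 with DEHP, against 7.88, 7.95 and 8.06 with corn oil, without overlap. It rose by 2.04 ± 0.30 (4.1-fold, adjusted p = 0.000519), and its other probe set likewise by 2.04. Hsdl2, a peroxisomal protein of the hydroxysteroid dehydrogenase family, rose by 1.01 ± 0.14 (2.01-fold, adjusted p = 0.000381).

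**Figure D1:**
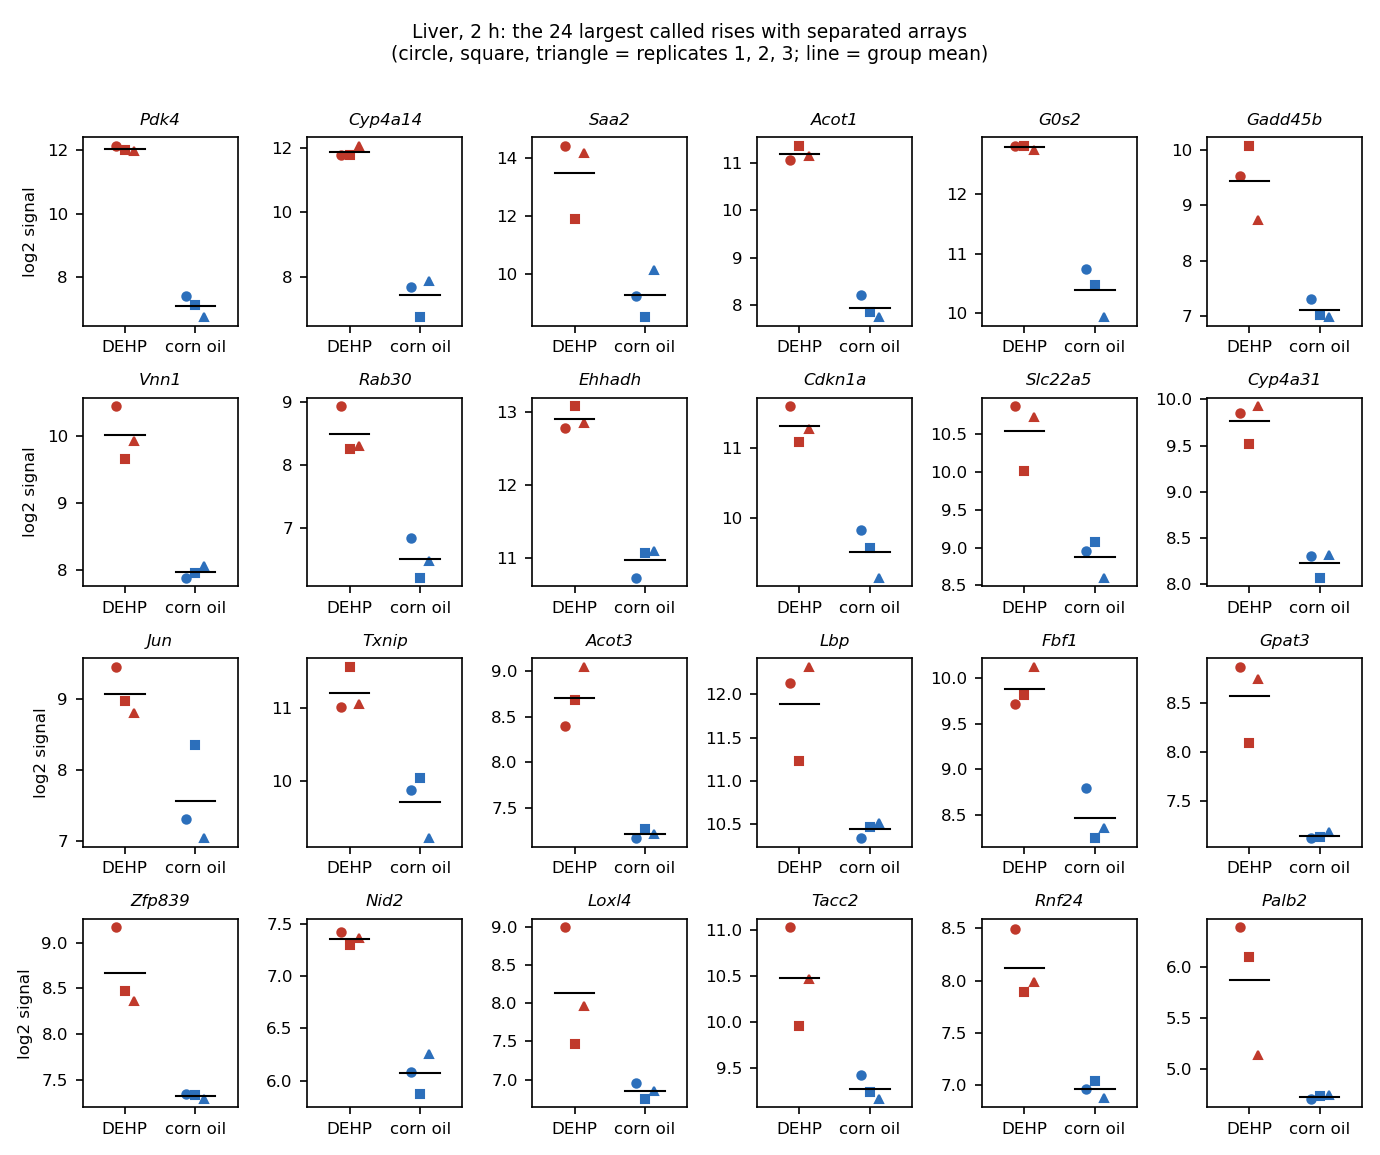
Log2 signal (vertical axes, scaled per gene) on each 2 h array for the 24 largest called rises whose arrays do not overlap, with DEHP in red and corn oil in blue, symbols for replicates 1, 2 and 3 and lines at group means. Pdk4, Cyp4a14, Acot1 and G0s2 have nearly equal DEHP values, while for Saa2, Lbp and Gpat3 DEHP replicate 2 lies nearest to corn oil.

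The lists of p53 targets, immediate-early genes and apoptosis held 1 called gene each. Gadd45b, a stress sensor that the receptor CAR also induces, read 9.52, 10.07 and 8.72 with DEHP, against 7.31, 7.02 and 6.98 with corn oil. No array overlapped, and DEHP replicate 3 was the lowest of its group. Gadd45b rose by 2.33 ± 0.32 (5.04-fold, adjusted p = 0.00019); its 3 probe sets ranged from 0.01 to 3.30. Cdkn1a, the p21 inhibitor of cyclin-dependent kinases, read 11.59, 11.09 and 11.26 with DEHP, against 9.82, 9.56 and 9.14 with corn oil. Its groups were wide apart. Cdkn1a rose by 1.81 ± 0.21 (3.5-fold, adjusted p = 3.35e-05), and its other probe set by 0.63. It was the only 1 called of 19 measured p53 targets (5.26%), whose median change was 0.04. Txnip, which binds thioredoxin and limits glucose uptake, read 11, 11.56 and 11.05 with DEHP, against 9.87, 10.03 and 9.21 with corn oil, with DEHP replicate 2 the highest. Txnip rose by 1.5 ± 0.21 (2.83-fold, adjusted p = 0.000323). Jun, a subunit of AP-1, read 9.45, 8.97 and 8.81 with DEHP, against 7.32, 8.35 and 7.04 with corn oil, where corn oil replicate 2 came close to the DEHP values. Jun rose by 1.51 ± 0.35 (2.85-fold, adjusted p = 0.0393), a call holding only without corn oil replicate 2 (range 1.25 to 1.90). It was the 1 called of 34 immediate-early genes (2.94%), whose median change was -0.10; Fos had a change of -0.10, Atf3 of -0.06, Egr1 of -0.53 and Myc of 0.78 ± 0.41 (adjusted p = 0.651). Casp8, which starts death receptor apoptosis, rose by 0.65 ± 0.12 (1.57-fold, adjusted p = 0.00571), a call failing without corn oil replicate 3 or DEHP replicate 1 (range 0.53 to 0.77), as the 1 called of 18 apoptosis genes (5.56%).

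Several large rises were outside the lists. Rab30, a Golgi GTPase, read 8.93, 8.25 and 8.31 with DEHP, against 6.83, 6.20 and 6.46 with corn oil, and rose by 2.00 ± 0.26 (4-fold, adjusted p = 0.000103), with 0.87 on its other probe set. Fbf1, a protein of centrioles and cilia, read 9.71, 9.81 and 10.12 with DEHP, against 8.79, 8.24 and 8.35 with corn oil, and rose by 1.42 ± 0.14 (2.68-fold, adjusted p = 2.85e-06). Nid2, a basement membrane protein, read 7.42, 7.29 and 7.36 with DEHP, against 6.08, 5.87 and 6.25 with corn oil, with tight groups, and rose by 1.29 ± 0.15 (2.44-fold, adjusted p = 2.89e-05). Zfp839, a zinc finger protein, rose by 1.35 ± 0.16 (2.54-fold, adjusted p = 4.76e-05). Loxl4, a matrix cross-linking oxidase, rose by 1.29 ± 0.22 (2.44-fold, adjusted p = 0.00339), and Tacc2, a centrosome protein, by 1.22 ± 0.20 (2.32-fold, adjusted p = 0.0016); in both, DEHP replicate 1 was the highest array and DEHP replicate 2 the lowest of its group. Palb2, the partner of BRCA2 in DNA repair, rose by 1.15 ± 0.18 (2.21-fold, adjusted p = 0.00133). Rnf24, a ring finger protein, rose by 1.16 ± 0.15 (2.24-fold, adjusted p = 0.000113) and Cpeb4, which binds the tails of messenger RNAs, by 1.10 ± 0.16 (2.14-fold, adjusted p = 0.000538). The other probe set of Rnf24 stood at 0.18. Grpel2, a cochaperone of mitochondrial protein import, rose by 0.99 ± 0.14 (1.98-fold, adjusted p = 0.0003), and Clpx, the unfoldase of the mitochondrial Clp protease, by 0.91 ± 0.18 (1.88-fold, adjusted p = 0.0114). St3gal5, which makes the ganglioside GM3, rose by 0.88 ± 0.18 (1.83-fold, adjusted p = 0.019), and Slc4a4, a bicarbonate cotransporter, by 0.89 ± 0.14 (1.85-fold, adjusted p = 0.00116). The probe sets of Slc4a4 ranged from 0.04 to 0.89. Ndrg1, a hypoxia-responsive gene, rose by 0.81 ± 0.16 (1.75-fold, adjusted p = 0.0149), and Trim25, a ubiquitin ligase of antiviral signalling, by 0.70 ± 0.15 (1.62-fold, adjusted p = 0.0239). Of the genes in these sentences, Clpx, St3gal5, Ndrg1 and Trim25 did not keep their calls: that of Clpx was holding only without DEHP replicate 2, DEHP replicate 3 or corn oil replicate 2 (range 0.84 to 0.98), that of St3gal5 holding only without DEHP replicate 2 or corn oil replicate 3 (range 0.72 to 0.99), that of Ndrg1 holding only without DEHP replicate 2 or corn oil replicate 2 (range 0.69 to 0.91) and that of Trim25 holding only without DEHP replicate 2 or corn oil replicate 2 (range 0.61 to 0.86).

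Acute phase genes, which hepatocytes switch on in inflammation, read higher on DEHP replicates 1 and 3 than on replicate 2. Of 29 measured members 2 were called higher (6.9%) and none lower; 25 had a positive change and the median was 0.33. Saa2, a serum amyloid, read 14.41, 11.89 and 14.15 with DEHP, against 9.22, 8.50 and 10.11 with corn oil. DEHP replicate 2 stood between the other DEHP arrays and the highest corn oil array. Saa2 rose by 4.21 ± 0.95 (18.5-fold, adjusted p = 0.0344), a call holding only without DEHP replicate 2 (range 3.75 to 5.00). Lbp, which presents endotoxin to its receptor, read 12.13, 11.23 and 12.32 with DEHP, against 10.34, 10.47 and 10.51 with corn oil. Here too DEHP replicate 2 was nearest to corn oil. Lbp rose by 1.45 ± 0.34 (2.73-fold, adjusted p = 0.042), a call holding only without DEHP replicate 2 (range 1.24 to 1.78). Lcn2, a siderophore-binding protein, read 13.61, 8.23 and 12.68 with DEHP, against 6.22, 6.92 and 6.92 with corn oil. Replicates 1 and 3 of DEHP were far above every other array. The change of 4.82 ± 1.49 (adjusted p = 0.204) did not pass the test. Saa3 had a change of 3.58 ± 0.91 (adjusted p = 0.069), Orm2 of 2.77 ± 1.35 (adjusted p = 0.595), Saa1 of 2.30 ± 0.59 (adjusted p = 0.0766) and the metallothionein Mt2 of 2.29 ± 0.94 (adjusted p = 0.458). Without DEHP replicate 2, 6 members were called higher (Saa2, Saa3, Lcn2, Serpina3n, Lbp and Steap4), and without any other single array 0. The serum amyloid genes lie together on chromosome 7 and share sequence, so the split between Saa1 and Saa2 is uncertain.

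The mean of the acute phase list, relative to its mean over all 24 arrays, was 0.99, 0.03 and 0.75 with DEHP, against -0.36, -0.37 and -0.05 with corn oil. Markers of exocrine pancreas, a tissue next to the liver, stood at 3.07, -0.50 and -0.46 with DEHP, against 0.82, 1.72 and -0.57 with corn oil; none of the 15 was called. They were thus high on DEHP replicate 1, which had the highest acute phase mean, and low on DEHP replicate 3, where that mean was also high. The 12 neutrophil markers stood at 0.53, 0.02 and 0.49 with DEHP, against -0.16 on each corn oil array, and none was called. Lcn2, an acute phase gene too, is 1 of these 12. Of the 12 changes 6 were positive and 6 negative, with a median of 0.00. The change was 0.75 for S100a8 and 0.42 for S100a9, and 0.13, -0.05, -0.04 and -0.04 for Mpo, Camp, Ngp and Ltf. The 18S ribosomal RNA probe read 6.58, 7.35 and 6.29 with DEHP, against 7.18, 7.96 and 8.49 with corn oil. The part of these differences in the acute phase values was not tested.

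Of 24 measured complement and coagulation genes 1, Cfb, was called higher (4.17%), as were a few genes outside the lists. Nlrp12, a cytosolic sensor, rose by 1.10 ± 0.23 (2.15-fold, adjusted p = 0.0196), a call holding only without DEHP replicate 2, DEHP replicate 3 or corn oil replicate 2 (range 0.95 to 1.27). Irak2, a kinase of toll-like receptor signalling, rose by 0.54 ± 0.09 (1.45-fold, adjusted p = 0.00256), and Myd88, an adaptor of the same receptors, by 0.54 ± 0.11 (1.45-fold, adjusted p = 0.0222), the last a call holding only without DEHP replicate 2 or corn oil replicate 2 (range 0.44 to 0.63). Cfb, complement factor B, rose by 0.46 ± 0.10 (1.37-fold, adjusted p = 0.0356), a call holding only without DEHP replicate 2 (range 0.40 to 0.56). None of 22 measured inflammatory and NF-kappaB genes was called by limma in either direction, with a median change of -0.09; Ccl2 had a change of -0.11 and Cxcl1 of -0.22.

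Genes of fatty acid synthesis were lower on DEHP replicates 1 and 3 and near corn oil on replicate 2. Of 26 measured members 23 had a negative change, with a median of -0.31, and 2 were called lower (7.69%, against 0.214% of all genes). Acss2, which makes acetyl-CoA from acetate, read 10.01, 11.58 and 10.16 with DEHP, against 12.04, 11.76 and 12.29 with corn oil. DEHP replicate 2 stood just below the lowest corn oil array, and the other DEHP arrays far below it. Acss2 fell by 1.45 ± 0.31 (adjusted p = 0.0244), a call holding only without DEHP replicate 2 or corn oil replicate 2 (range -1.94 to -1.16). Pnpla5, a lipase of the Pnpla family, read 6.51, 7.98 and 6.60 with DEHP, against 8.49, 7.95 and 8.60 with corn oil, where DEHP replicate 2 lay within the corn oil values. It fell by 1.31 ± 0.28 (adjusted p = 0.0231), a call holding only without DEHP replicate 2 or corn oil replicate 2 (range -1.79 to -1.05). Fasn, the fatty acid synthase, read 10.90, 12.57 and 11.38 with DEHP, against 12.87, 12.76 and 13.10 with corn oil, and had a change of -1.29 ± 0.39 (adjusted p = 0.181). Acly, which makes cytosolic acetyl-CoA from citrate, had a change of -1.33 ± 0.34 (adjusted p = 0.0733), and Thrsp, a lipogenic regulator, of -1.27 ± 0.42 (adjusted p = 0.269). Without DEHP replicate 2, 9 members were called lower (Acly, Acaca, Acacb, Fasn, Me1, Thrsp, Acss2, Pnpla5 and Pklr). Without corn oil replicate 2 the number was 2, and without any other single array it was 0. Of the 3 members with a positive change, Elovl3, an elongase, had a change of 0.61 ± 0.33 (adjusted p = 0.671).

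None of 22 measured cholesterol synthesis genes was called by limma, although 20 changes were negative and the median was -0.34. Mvd, of the mevalonate pathway, read 8.41, 8.53 and 7.94 with DEHP, against 9.2, 9.0 and 9.52 with corn oil, with no overlap and a change of -0.95 ± 0.26 (adjusted p = 0.109). Insig2, which retains the sterol sensor in the endoplasmic reticulum, went the other way with 0.59 ± 0.18 (adjusted p = 0.212). Without DEHP replicate 2, 3 members were called lower (Tm7sf2, Insig1 and Scap), and without any other single array 0.

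**Figure D2:**
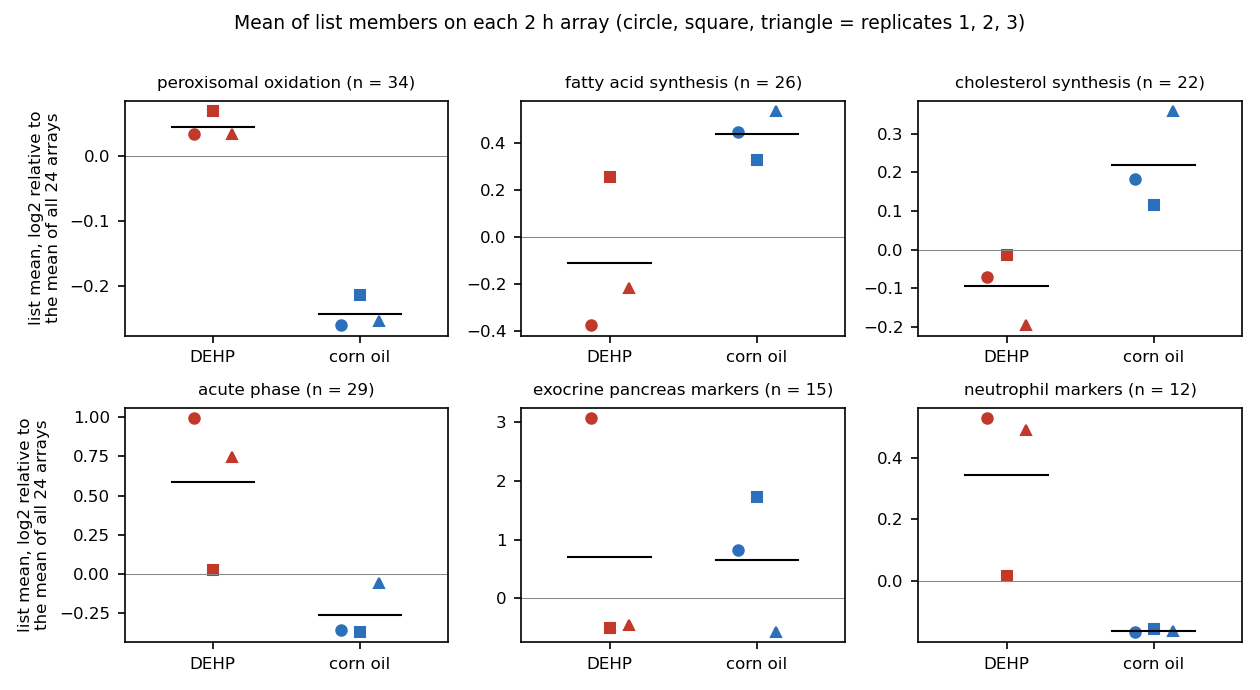
Mean over the measured members of 6 gene lists on each 2 h array (vertical axes, log2 relative to the mean over all 24 arrays), with DEHP in red and corn oil in blue, symbols for replicates 1, 2 and 3 and lines at group means. DEHP replicate 2 (square) lies with the other DEHP arrays for peroxisomal oxidation and near corn oil for fatty acid synthesis, and it has the lowest DEHP mean for the acute phase.

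The mean of the fatty acid synthesis list, on the same scale, was -0.37, 0.26 and -0.22 with DEHP, against 0.45, 0.33 and 0.54 with corn oil. DEHP replicate 2 was nearest to corn oil. The peroxisomal mean was 0.03, 0.07 and 0.03 with DEHP, against -0.26, -0.21 and -0.25 with corn oil. Over the called genes, DEHP replicate 2 was the DEHP array closest to corn oil for 73 of 112 higher genes, replicate 3 for 22 and replicate 1 for 17. Among the 39 lower genes replicate 2 was closest for 26, replicate 1 for 8 and replicate 3 for 5. Over all genes, DEHP replicate 2 differed from the corn oil arrays with an SD of 0.208 to 0.250, while DEHP replicates 1 and 3 did so with 0.269 to 0.329. Pairs of corn oil arrays differed with an SD of 0.234 to 0.244 and pairs of DEHP arrays with 0.239 to 0.276.

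Of 21 measured bile acid genes 2 were called lower (9.52%, against 0.214% of all genes), with a list median of -0.05. Cyp7a1, which catalyses the slowest step from cholesterol to bile acids, read 9.29, 8.53 and 8.66 with DEHP, against 9.69, 10.30 and 10.68 with corn oil. DEHP replicate 1 came nearest to the corn oil arrays. Cyp7a1 fell by 1.40 ± 0.29 (adjusted p = 0.0195), a call holding only without DEHP replicate 1 or corn oil replicate 1 (range -1.66 to -1.17). Akr1d1, which reduces the steroid ring of bile acid precursors, read 9.58, 9.93 and 9.76 with DEHP, against 10.55, 10.41 and 10.62 with corn oil, without overlap. It fell by 0.77 ± 0.18 (adjusted p = 0.0421), a call holding only without DEHP replicate 2 (range -0.86 to -0.68). Cyp8b1, the sterol 12-alpha-hydroxylase, had a change of 0.01 and Cyp27a1, of the alternative pathway, of -0.16. Nr0b2, the repressor SHP, had a change of -0.14.

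Among 27 measured targets of glucocorticoids and fasting 2 were called higher (7.41%), Cdkn1a and Creb3l3, and 1 lower (3.7%), Foxo3, with a list median of 0.18. Leaving out DEHP replicate 2 made these counts 4 and 2. Foxo3, a forkhead transcription factor of fasting and stress, read 8.34, 8.30 and 8.10 with DEHP, against 9.02, 9.34 and 9.16 with corn oil. Both groups were tight and lay apart. Foxo3 fell by 0.93 ± 0.14 (adjusted p = 0.000649). Hes6, a transcriptional regulator of the Hes family whose probe set may cross-hybridise, read 10.26, 10.23 and 9.81 with DEHP, against 11.43, 10.91 and 11.21 with corn oil, and fell by 1.08 ± 0.19 (adjusted p = 0.00422), a call failing without DEHP replicate 3 (range -1.22 to -0.93). Zfp385b, a zinc finger protein, read 6.58, 6.5 and 6.84 with DEHP, against 7.63, 7.54 and 7.99 with corn oil, and fell by 1.08 ± 0.14 (adjusted p = 9.75e-05); of its 3 probe sets 1 stood at 0.01. Rassf6, a Ras-association domain protein, fell by 0.93 ± 0.20 (adjusted p = 0.0208), a call holding only without DEHP replicate 2, corn oil replicate 1 or corn oil replicate 2 (range -1.11 to -0.67). Cry2, a repressor of the circadian clock, fell by 0.42 ± 0.08 (adjusted p = 0.00931), a call failing without corn oil replicate 1 or corn oil replicate 3 (range -0.48 to -0.38). It was the 1 called of 20 clock genes (5%), whose median change was -0.11; without corn oil replicate 2, 3 were called lower. The clock output gene Dbp read 6.06, 6.59 and 5.96 with DEHP, against 8.34, 7.45 and 9.67 with corn oil, with no overlap but a wide corn oil range, and had a change of -2.28 ± 0.57 (adjusted p = 0.0646).

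Of 20 measured glucose and glycogen genes 17 had a negative change and 1, Khk, was called lower (5%, list median -0.28); without DEHP replicate 2 there were 5 (Pklr, Slc2a2, Pygl, Khk and Slc37a4), and without any other single array 0. Khk, which starts fructose breakdown, fell by 0.66 ± 0.15 (adjusted p = 0.0393), a call holding only without DEHP replicate 2 (range -0.83 to -0.53). Of 31 measured genes of amino acid catabolism and the urea cycle 26 had a negative change, with a list median of -0.19. The DEHP arrays of 14 lay entirely below corn oil, as did those of 6.72% of all genes. Prodh was the 1 called lower (3.23%, against 0.214% of all genes). Leaving out DEHP replicate 2, 4 were called lower (Prodh, Gpt, Gnmt and Haao), and leaving out each other array, 0 or 1. Prodh, which starts the breakdown of proline, fell by 0.84 ± 0.17 (adjusted p = 0.0176), a call holding only without DEHP replicate 2 or corn oil replicate 1 (range -0.95 to -0.75). Other falls were outside these lists. Upp2, a uridine phosphorylase, read 9.70, 10.99 and 10.24 with DEHP, against 11.59, 11.07 and 12.10 with corn oil, with DEHP replicate 2 just under the lowest corn oil array. It fell by 1.28 ± 0.29 (adjusted p = 0.0356), a call holding only without DEHP replicate 2 or corn oil replicate 2 (range -1.62 to -0.97). Slc19a2, a thiamine transporter, fell by 0.47 ± 0.08 (adjusted p = 0.00289), and Zfyve21, a FYVE domain protein, by 0.70 ± 0.12 (adjusted p = 0.0022). Shmt1, of one-carbon metabolism, fell by 0.58 ± 0.13 (adjusted p = 0.0306), a call holding only without DEHP replicate 2 or corn oil replicate 2 (range -0.69 to -0.50), and Adh1, the main alcohol dehydrogenase, by 0.31 ± 0.07 (adjusted p = 0.0282), a call holding only without DEHP replicate 2 (range -0.38 to -0.27). Car14, a membrane carbonic anhydrase, fell by 0.78 ± 0.16 (adjusted p = 0.0152), Hpgd, which inactivates prostaglandins, by 0.75 ± 0.17 (adjusted p = 0.0356), Aldh1b1, a mitochondrial aldehyde dehydrogenase, by 0.69 ± 0.14 (adjusted p = 0.0179) and Ppat, the first enzyme of purine synthesis, by 0.68 ± 0.15 (adjusted p = 0.0278). Mknk2, a kinase of the translation factor eIF4E, fell by 0.78 ± 0.18 (adjusted p = 0.0356), and Fzd5, a Wnt receptor, by 0.70 ± 0.14 (adjusted p = 0.0177). The other probe set of Fzd5 stood at -0.03. The call of Car14 was holding only without DEHP replicate 2 or corn oil replicate 1 (range -0.97 to -0.63), that of Hpgd holding only without corn oil replicate 2 (range -0.87 to -0.57), that of Aldh1b1 holding only without DEHP replicate 2 or corn oil replicate 2 (range -0.74 to -0.62) and that of Ppat holding only without DEHP replicate 1, DEHP replicate 2 or corn oil replicate 1 (range -0.79 to -0.55). That of Mknk2 was holding only without DEHP replicate 2 or corn oil replicate 2 (range -0.94 to -0.62) and that of Fzd5 holding only without DEHP replicate 2, corn oil replicate 1 or corn oil replicate 2 (range -0.77 to -0.60).

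Of 35 measured genes of DNA replication and the start of S phase, 2 were called lower (5.71%) and none higher, with a median change of -0.08. Mcm10, a replication initiation factor, read 10.25, 10.41 and 10.25 with DEHP, against 11.23, 11.62 and 10.79 with corn oil, and fell by 0.91 ± 0.21 (adjusted p = 0.0356), a call holding only without DEHP replicate 2 or corn oil replicate 3 (range -1.12 to -0.70); its 3 probe sets ranged from -0.91 to -0.17. Tk1, thymidine kinase, fell by 0.48 ± 0.11 (adjusted p = 0.0278), a call holding only without DEHP replicate 1, DEHP replicate 3 or corn oil replicate 2 (range -0.54 to -0.37). Of 21 mitosis genes limma called none, with a median of -0.08 and Mki67 at -0.11. Cks2, a partner of cyclin-dependent kinases outside both lists, fell by 0.75 ± 0.17 (adjusted p = 0.0325), a call holding only without DEHP replicate 1 or DEHP replicate 2 (range -0.89 to -0.49).

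**Figure D3:**
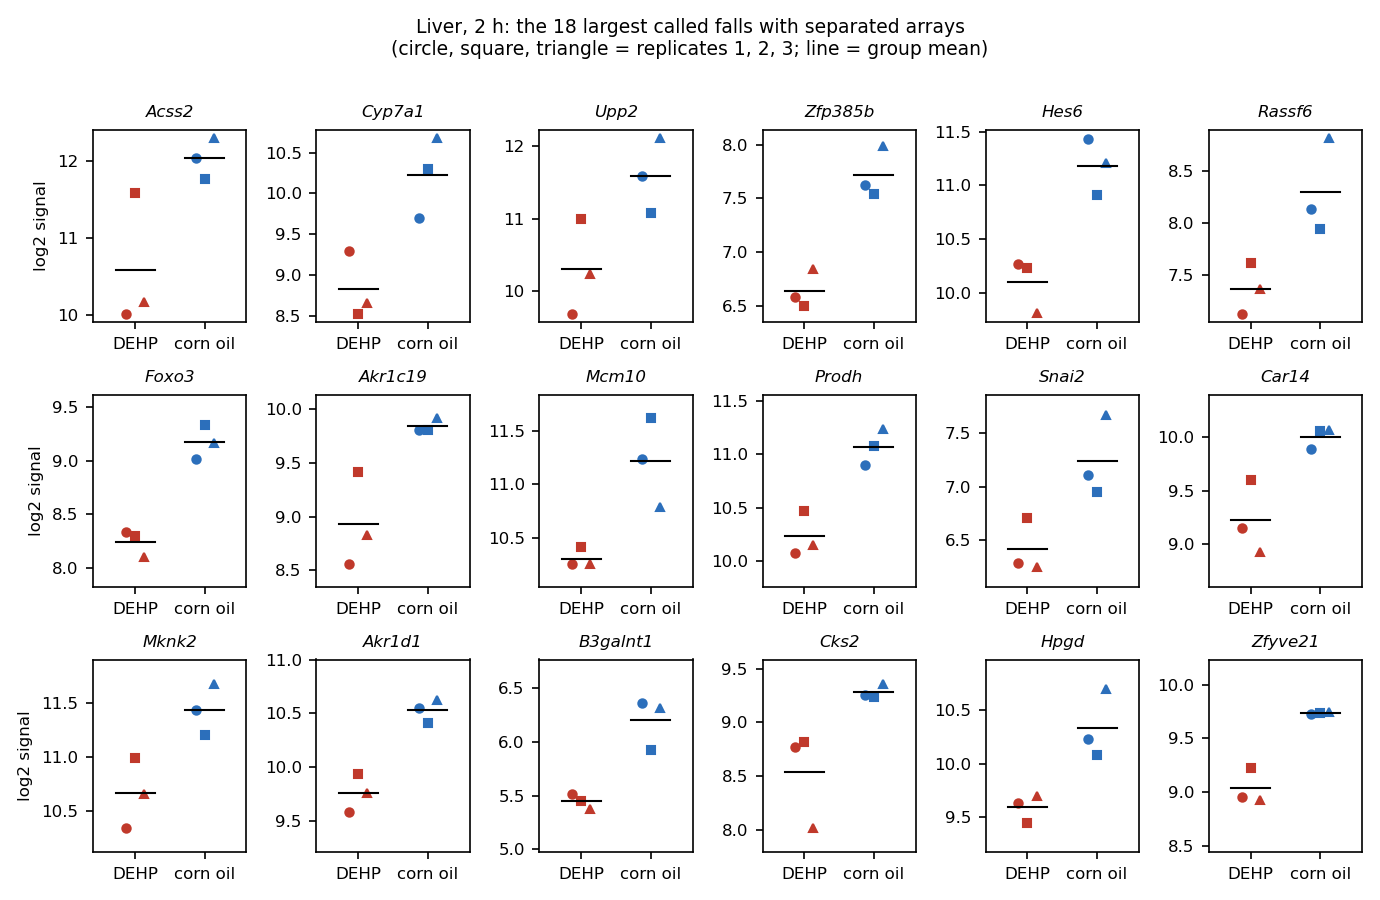
Log2 signal (vertical axes, scaled per gene) on each 2 h array for the 18 largest called falls whose arrays do not overlap, with DEHP in red and corn oil in blue, symbols for replicates 1, 2 and 3 and lines at group means. Foxo3 has compact groups that lie apart, while for Acss2 and Upp2 DEHP replicate 2 lies just under the lowest corn oil array.

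Lists of other responses to chemicals held few calls. Of 27 measured genes of drug metabolism under the receptors CAR and PXR, Gadd45b was the 1 called (3.7%), with a list median of -0.07. Cyp2b10, the usual marker of CAR, read 7.67, 7.78 and 8.39 with DEHP, against 6.74, 6.70 and 7.50 with corn oil, with DEHP just above corn oil, and had a change of 0.97 ± 0.29 (adjusted p = 0.188). Alas1, of the same list, read 13.08, 12.88 and 12.63 with DEHP, against 11.42, 11.89 and 10.28 with corn oil, without overlap. Its change of 1.66 ± 0.42 (adjusted p = 0.0673) was called only in the fit without corn oil replicate 2. Limma called none of 9 aryl hydrocarbon receptor genes (median -0.13, Cyp1a1 -0.06), none of 16 heat shock genes (median -0.20), none of 26 endoplasmic reticulum folding genes (median 0.05), none of 17 genes of growth hormone signalling (median 0.01) and none of 19 genes of antioxidant defence (median 0.04). Of 14 measured sex-biased liver genes it called 1 higher, Acot3 (7.14%, median -0.07). It called no member of the 10 marker lists, whose medians lay between -0.19 for stellate cells and 0.09 for exocrine pancreas. Of 17 stellate markers 16 had a negative change, and the DEHP arrays of 7 lay entirely below corn oil, as did those of 6.72% of all genes. For 16 endothelial markers these numbers were 14 and 3, while 14 of 17 macrophage markers had a positive change. Without DEHP replicate 2, Lcn2 and Ighm of the marker lists were called. Over all 18193 genes, 1533 had an unadjusted p under 0.05.

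**Figure D4:**
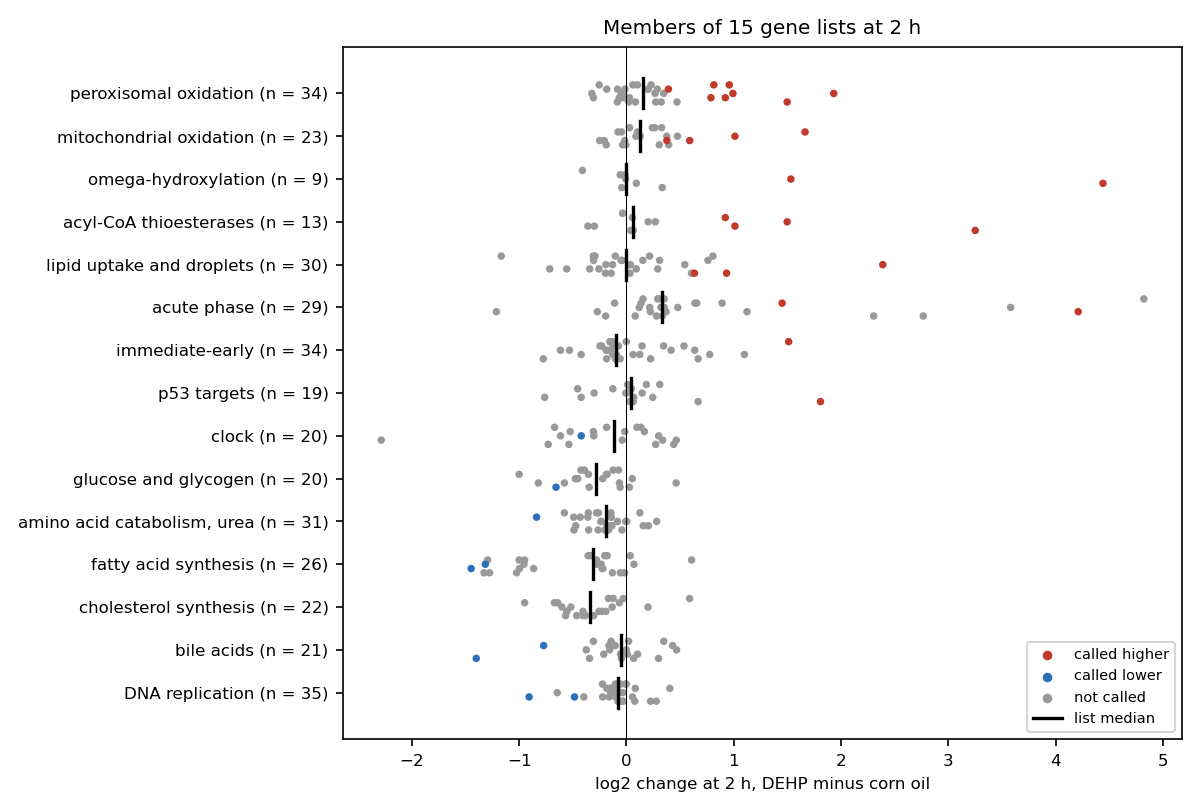
Log2 change at 2 h, DEHP minus corn oil (horizontal axis), of every measured member of 15 gene lists (rows), with called members in red (higher) or blue (lower), uncalled ones in grey and the list median as a black bar. The leading called rises, such as Cyp4a14, Acot1 and Ehhadh, sit far to the right of their lists' medians, smaller called rises lie among uncalled members, and nearly all members of fatty acid and cholesterol synthesis lie below 0.

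The 2 h changes were then set beside those at the later times, which share no arrays with them. The 8 h comparison called 4.13% of all genes (1.28% or 232 as higher, 2.86% or 520 as lower). Of the 112 genes higher at 2 h, 52 were also higher at 8 h, which is 46.4% of the 2 h list and 22.4% of the 8 h list. Of the 39 lower genes 4 were also lower at 8 h (Macrod1, Ogfrl1, Prodh and Slc35d2), while Hdac5, higher at 2 h, was lower at 8 h. At 24 h, where 0.297% of genes were called (46 higher, 0.253%, and 8 lower, 0.044%), 8 of the 112 and 0 of the 39 were shared. At 72 h, where 4.18% were called (205 higher, 1.13%, and 555 lower, 3.05%), 8 and 2 were shared, while 8 of the 112, Saa2 and Cdkn1a among them, were lower and 4 of the 39, Upp2 and Tk1 among them, were higher. Acot1, Acot2, Cyp4a14, Cyp4a31, Ehhadh, Hsdl2 and Vnn1 were called higher at all 4 times, and 59 of the higher and 33 of the lower genes were called at 2 h alone.

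Whether an effect differed between times was tested as the difference of the 2 effects. Genes called at 2 h were chosen by an effect that enters each difference, which favours larger effects at 2 h among them. Against 8 h, 83 genes differed (0.456%), with 54 differences positive and 29 negative (48 and 45 after quantile normalization). Of the genes called at 2 h, 4 higher and 3 lower ones were among them. For Cdkn1a, 1 of these, the changes were 1.81 at 2 h, 0.48 at 8 h, 0.33 at 24 h and -0.81 at 72 h. Nid2 differed from all 3 later times, with 1.29 at 2 h, 0.34 at 8 h, -0.12 at 24 h and -0.19 at 72 h. Zfp839 had 1.35 at 2 h, -0.05 at 8 h, 0.20 at 24 h and -0.23 at 72 h, and Hdac5, a histone deacetylase, had 0.49 at 2 h, -0.42 at 8 h, 0.26 at 24 h and -0.19 at 72 h; its 2 h rise was a call holding only without corn oil replicate 2 (range 0.38 to 0.62). Upp2 had -1.28 at 2 h, 0.60 at 8 h, -0.34 at 24 h and 1.06 at 72 h, and Slc19a2 had -0.47 at 2 h, 0.21 at 8 h, 0.04 at 24 h and -0.01 at 72 h.

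Against 24 h, 12 genes differed (0.066%), with 11 differences positive and 1 negative (24 and 8 after quantile normalization); 10 of them were higher at 2 h. Pdk4 led these, with 4.96 at 2 h, 5.97 at 8 h, 1.00 at 24 h and 0.68 at 72 h. Rab30 had 2.00 at 2 h, 2.01 at 8 h, -0.21 at 24 h and 0.10 at 72 h, and Gpat3 had 1.42 at 2 h, 1.11 at 8 h, 0.04 at 24 h and 0.27 at 72 h. Against 72 h, 425 genes differed (2.34%), with 316 differences positive and 109 negative (250 and 206 after quantile normalization). Of the 112 higher genes 68 had the larger rise at 2 h and 1, Cyp4a31, the smaller, with 1.53 at 2 h, 2.12 at 8 h, 2.67 at 24 h and 3.04 at 72 h. Of the 39 lower genes 17 had the larger fall at 2 h. Both counts lean towards 2 h because the genes were chosen by their 2 h effect. Saa2 had 4.21 at 2 h, 0.77 at 8 h, -1.32 at 24 h and -3.95 at 72 h. The acute phase list had a mean log2 signal of 12.08, 11.11 and 11.83 with DEHP at 2 h. With corn oil it was 12.01, 11.11 and 11.22 at 8 h, 10.79, 10.68 and 11.59 at 24 h, and 12.06, 10.98 and 10.95 at 72 h. The later DEHP arrays had 10.42 to 11.70. The part of single corn oil arrays in the later Saa2 changes was not tested. Cyp4a14 differed from no later time by the test of the difference, with 4.44 at 2 h, 3.92 at 8 h, 4.86 at 24 h and 5.70 at 72 h, and the same holds for Acot1, with 3.25 at 2 h, 3.43 at 8 h, 3.07 at 24 h and 4.02 at 72 h.

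**Figure D5:**
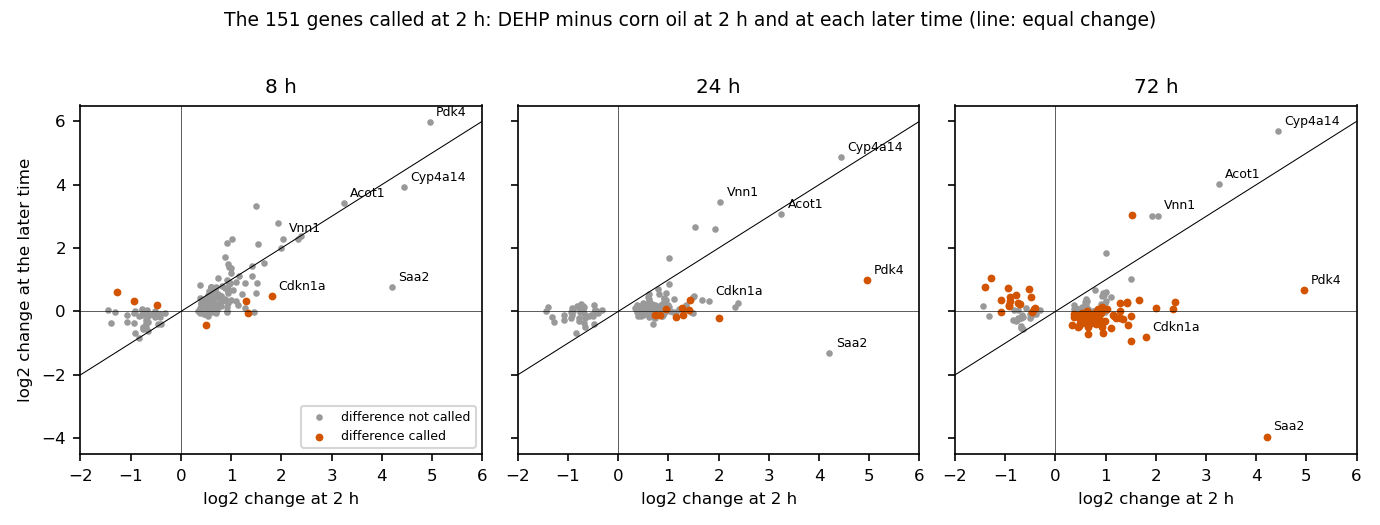
Log2 change, DEHP minus corn oil, of the 151 genes called at 2 h (horizontal axis) against the change at 8, 24 and 72 h (vertical axis, 1 panel per time), with the line of equal change and genes whose effect differed between the times in orange. Many of the higher genes also lie above 0 at 8 h and most lie near 0 at 24 h, while Cyp4a14, Acot1 and Vnn1 stay near or above the line at all times and Saa2 falls below 0 at 24 and 72 h.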

How the data were processed

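Total RNA of 24 liver samples was measured on Affymetrix arrays with 45101 probe sets. The authors deposited log2 values from RMA, per the submitters' processing notes (version not given in the sources used here). They ranged from 2.84 to 14.55 and were used as deposited, although RMA shrinks the changes of dim genes. Of the probe sets 34958 carried 1 gene symbol, 932 several and 9211 no annotation. All 64 control probe sets were left out, 13 of them with 1 symbol and 51 without. Each of 18193 genes was represented by the probe set with the highest mean over 24 arrays, a choice that mattered for 9010 genes; 18031 genes matched a RefSeq gene ID. The other 10092 probe sets, without a single symbol and not controls, were tested apart.

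Groups were taken from the labels. R 4.3.3 and limma 3.58.1 fitted 8 group means to all 24 arrays (16 residual and 6.21 prior degrees of freedom), and Benjamini-Hochberg adjusted p-values under 0.05 were called. On simulated data the fit recovered 68.7% of log2 changes of 0.5 and 100% of changes of 1 and 2. The simulated noise was independent between genes, so shifts shared by many genes on 1 array were absent. In the data some changes larger than 1, such as those of Lcn2 and Fasn, were not called, so this recovery need not hold there. The number of arrays limits the precision. Any called gene could be named; values on all arrays follow a rule (the 24 largest rises and 20 largest falls with separate arrays, leading list members, fixed genes, and the largest differences between times); clones and predicted genes without a name were only counted. The comparison, the 42 gene lists and the rule were chosen with earlier results of these data known. Several alternatives, each array left out in turn among them, were fitted, and the closing section gives their effect. Promoter windows are RefSeq, GRCm38.p6. Figures used matplotlib 3.10.9.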

Additional observations from a re-analysis of the deposited data

Results flagged for a closer look

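The tests of the difference between 2 effects marked the following genes among those called at 2 h. That choice of genes favours larger effects at 2 h. Each value is the log2 effect of DEHP at 2 h minus that at the later time. Against 8 h the values were 1.40 for Zfp839, 1.33 for Cdkn1a, 0.94 for Nid2, 0.91 for Hdac5, -0.68 for Slc19a2 and -1.88 for Upp2. Against 24 h they were 3.96 for Pdk4, 2.21 for Rab30, 1.41 for Nid2, 1.38 for Gpat3, 1.32 for Rnf24, 1.05 for Fbf1, 0.93 for Bace1, 0.87 for Elmod3 and 0.83 for Ctif. Against 72 h the largest positive values were 8.16 for Saa2, 4.28 for Pdk4, 2.61 for Cdkn1a, 2.43 for Jun, 2.25 for Gadd45b, 2.09 for G0s2, 1.91 for Rab30, 1.89 for Lbp, and 1.63 for both Txnip and Cpeb4. The largest negative ones were -2.34 for Upp2, -2.16 for Cyp7a1, -1.51 for Cyp4a31, -1.43 for Zfp385b, -1.37 for Mcm10, -1.30 for Mknk2, -1.23 for both Akr1c19 and Fam13a, -1.15 for Rassf6 and -1.09 for Foxo3. The acute phase list, which holds Saa2 and Lbp, had mean log2 signals of 12.06, 10.98 and 10.95 with corn oil at 72 h. With DEHP at 72 h they were 10.47, 10.42 and 10.45. The part of corn oil replicate 1 of 72 h in the Saa2 and Lbp values was not tested.

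Probe sets with several gene symbols or with no annotation, which the gene comparison does not use, also held signal at 2 h. Of these 10092 probe sets, limma called 17 higher and 7 lower in DEHP livers. Some may take up signal of genes named above, which was not tested. The probe set 1443147_at read 7.43, 7.45 and 8.11 with DEHP, against 4.38, 4.15 and 4.37 with corn oil, a change of 3.37 ± 0.57 (adjusted p = 0.00801). The probe set 1422997_s_at read 11.28, 11.58 and 11.58 with DEHP, against 8.82, 8.44 and 8.35 with corn oil, a change of 2.94 ± 0.34.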

How the results depend on the processing

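The counts of called genes changed when single arrays were left out. Each such fit at 2 h set 2 arrays against 3, so it also had fewer arrays to test with. Acot2, for example, lost its call in all 6 fits while its change stayed between 0.97 and 1.05. Leaving out 1 array gave 58 to 149 higher and 7 to 90 lower genes at 2 h, against 112 and 39; for the difference between effects it gave 31 to 111 against 8 h (83), 2 to 43 against 24 h (12) and 142 to 600 against 72 h (425). Against 8 h the count was 35 without DEHP replicate 1, 37 without DEHP replicate 3, and 31 and 53 without corn oil replicates 1 and 3. Against 24 h it was 6 and 43 without DEHP replicates 1 and 2 and 2 without corn oil replicate 3. Against 72 h it was 142 without DEHP replicate 1, and 168 and 270 without corn oil replicates 1 and 3. At an adjusted p under 0.01 the counts were 55 higher, 7 lower, 20, 2 and 98. Fitting only the arrays of the times compared gave 19 lower genes, and 41 and 4 for the differences against 8 and 24 h. Array weights gave 25 lower genes and 140, 32 and 758. The Actb integrity covariate gave 40 against 8 h, and leaving out the 8 h arrays numbered 14 gave 184. Against 24 h, 22 differed with first against later replicates as a factor, with the trended robust fit and with median centring, 25 with a filter at the 40th percentile of signal, 32 with quantile normalization, and 38 without 1 corn oil array each of 8 h (replicate 2) and 72 h (replicate 1). The cause was not tested.

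A replicate block called 113 higher and 45 lower genes and 77, 10 and 397 differences; same-numbered arrays did not deviate together (correlations -0.07, -0.07 and -0.18 at 2 h), so the numbers were not used to pair samples. Of the 151 genes, 146 remained called with the block, 150 with median centring, 147 with quantile normalization, 142 with the Actb covariate, 132 with the trended robust fit, 114 with the mean over probe sets, 112 with array weights and 78 with only the 2 h arrays. None of these counts or changes reversed. For single genes and lists, 6400 recomputed values kept their side of the threshold or moved by less than the replicate spread, 616 lost their call, 56 gained one and 205 moved further. No intensities before RMA were used, so signal over background limits what can be said of dim genes.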
